A study of Mus musculus with 18 samples.

Results

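Ribosomes begin in the nucleolus, and 10 mouse genes of that pathway are described here across the 18 libraries of a stem cell differentiation series. They are Polr1a, Polr1b, Rrn3, Ncl, Fbl, Nop56, Nop58, Dkc1, Nolc1 and Bop1, chosen by gene name as factors of ribosomal RNA (rRNA) synthesis and processing in the nucleolus, the compartment in which the p19Arf protein is found. They make up 10 of the 54532 genes in the deposited table, and each matched 1 row. All the cells derive from ES-E14TG2a, an embryonic stem cell line from a mouse blastocyst. The 3 lines, named Arf-B, Arf-C and Ctrlv2, were each sequenced at day 8 and at day 0 of a protocol towards the pancreatic lineage, with 3 replicates in each of the 6 groups. Every library, those of Arf-B and Arf-C included, carries the genotype label wild type. How Arf-B and Arf-C were made, and whether each is 1 clone, was not given by the sources used here. All day 8 cells had received activin A (20 ng/mL) with Matrigel from day 0, then retinoic acid (given in the labels as 5 µM/ml) and FGF10 (10 ng/mL) from day 4. Nothing in the labels says that replicates came from separate cultures, so p-values measure only the spread between these libraries.

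RNA polymerase I copies the rRNA gene repeats into 1 long precursor. Small nucleolar ribonucleoproteins (snoRNPs) then modify it, guided by small nucleolar RNAs of the box C/D or box H/ACA class, while assembly factors fold it, cut it and load ribosomal proteins. Fast-growing cells such as embryonic stem cells have large nucleoli and make many ribosomes. The protein p19Arf resides in the nucleolus and is known from earlier work to restrain rRNA synthesis and processing. The libraries hold polyadenylated RNA, so they give the messenger RNA of these factors and not the rRNA itself.

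Promoter windows, the 250 bases before the RefSeq transcript start (GRCm38.p6), were found for 8 of the 10 genes. Those of 4 genes are shown because the results turn on them: Rrn3 fell the most over the protocol, Nop56 and Nop58 encode paired snoRNP proteins that differed between lines on different days, and Dkc1 was higher in both Arf lines on both days. Capitals mark any match, on either strand, to CACGTG (the E-box bound by Myc and Max proteins), CCGGAA (the core bound by ETS factors) or CCAAT (the box bound by NF-Y). No matches overlap in the windows shown.
Rrn3, chr16:13780449-13780698, plus strand: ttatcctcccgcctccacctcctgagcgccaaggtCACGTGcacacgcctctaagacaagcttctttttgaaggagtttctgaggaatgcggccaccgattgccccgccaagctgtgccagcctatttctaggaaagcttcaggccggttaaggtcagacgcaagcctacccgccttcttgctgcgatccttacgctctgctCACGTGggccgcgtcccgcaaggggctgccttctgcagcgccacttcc
Nop56, chr2:130274162-130274411, plus strand: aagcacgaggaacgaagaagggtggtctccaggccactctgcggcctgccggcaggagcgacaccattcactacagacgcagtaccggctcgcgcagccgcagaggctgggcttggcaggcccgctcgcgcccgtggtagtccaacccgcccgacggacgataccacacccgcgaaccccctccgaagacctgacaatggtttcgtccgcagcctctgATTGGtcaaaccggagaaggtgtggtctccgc
Nop58, chr1:59684756-59685005, plus strand: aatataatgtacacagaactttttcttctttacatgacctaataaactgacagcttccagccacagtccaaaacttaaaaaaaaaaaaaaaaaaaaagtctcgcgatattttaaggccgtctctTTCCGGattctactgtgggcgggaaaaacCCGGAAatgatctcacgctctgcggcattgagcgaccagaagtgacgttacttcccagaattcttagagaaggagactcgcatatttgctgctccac
Dkc1, chrX:75095604-75095853, plus strand: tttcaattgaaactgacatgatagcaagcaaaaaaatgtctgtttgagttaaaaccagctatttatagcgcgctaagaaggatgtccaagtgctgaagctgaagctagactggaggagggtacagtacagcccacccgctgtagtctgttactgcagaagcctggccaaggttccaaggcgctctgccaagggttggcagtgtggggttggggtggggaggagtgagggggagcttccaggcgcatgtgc
The Rrn3 window holds 2 copies of CACGTG, which begin 215 and 48 bases before the start. CACGTG is present in 6.02% of all 32851 promoter windows of this length, and in 1 of the 8 found here. Nop58 has 2 matches to CCGGAA, at 126 and 97 bases, and Nolc1 has 1 at 14 bases, where 12% of all windows hold this motif. Nop56 has the CCAAT box on its minus strand 32 bases before the start and Polr1a has 1 at 31 bases, against 33.8% of all windows. The Dkc1 window has none of the 3 motifs.

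Values are FPKM, fragment counts scaled by gene length and a library size, as the authors deposited them. The library sizes that the values imply lay within 0.524% of median-ratio sizes, up to a common factor. Such sizes are set so that the typical gene has like values in all libraries, which keeps the median change of all genes near 0. Reads on genes, recovered from these values, ranged from 10432590 to 33311220 per library, with the shallowest libraries in Ctrlv2 at day 8. The 10 genes had between 570 and 72036 reads in every library, and all 10 passed the filter on low values (0.5 FPKM in 3 libraries). Markers of undifferentiated stem cells summed to 644.9 to 870 FPKM in Arf-B, 535.9 to 897 in Arf-C and 104.7 to 136.3 in Ctrlv2 at day 8, against 4256 to 4529, 4127 to 4902 and 5077 to 5157 FPKM at day 0. Definitive and foregut endoderm markers, the cell type the protocol aims at, summed to 26.87 to 29.18, 28.63 to 31.85 and 41.02 to 48.82 FPKM in the same lines at day 8. Their day 0 sums were 2.346 to 3.556, 3.374 to 4.221 and 2.97 to 3.668 FPKM. Cdkn2a, the gene of p19Arf and p16Ink4a, had 42.7 ± 2.33 FPKM in Arf-B, 44.1 ± 1.96 in Arf-C and 32.9 ± 1.22 in Ctrlv2 at day 8, against 1.99 ± 0.269, 2.29 ± 0.0982 and 2.72 ± 0.752 at day 0 (SD, n = 3 each). Replicates 1 and 2 of Ctrlv2 at day 0 differed the most of all replicate pairs (chi-square per degree of freedom 34.46, against 4.212 for the closest pair), and replicate 2 had the highest Ncl, Nop58, Dkc1, Nolc1 and Bop1 levels of the 3.

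All 10 genes fell over the protocol, in all 3 lines. The median log2 fold change of the 10, day 8 over day 0, was -0.92 in Arf-B, -0.68 in Arf-C and -0.75 in Ctrlv2, where the median of all 17200 genes tested was -0.02, -0.02 and -0.01. Each gene was called lower in each line at an adjusted p below 0.05 (limma on log2(FPKM + 1), Benjamini-Hochberg over all genes tested). Of all genes tested, 33.8% in Arf-B, 33.8% in Arf-C and 34.4% in Ctrlv2 were called lower, and 32.9%, 32.8% and 33.9% were called higher. In every line the 3 day 8 libraries lay below the 3 day 0 libraries for every gene. The summed level of the 10 genes was 421.8 to 432.6 FPKM in Arf-B, 418.7 to 440.5 in Arf-C and 406.3 to 438.8 in Ctrlv2 at day 8, against 807.7 to 912.9, 748.4 to 804.4 and 691.2 to 800.0 FPKM at day 0. The day 8 sums of the 3 lines overlapped each other. All 30 calls remained without any single library and under each other setting tried. In bulk samples such as these, fewer cells of a type and less RNA per cell cannot be told apart. The undifferentiated stem cell markers fell with these genes, 8 of 8 in each line, and their part in the result was not tested.

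**Figure D1:**
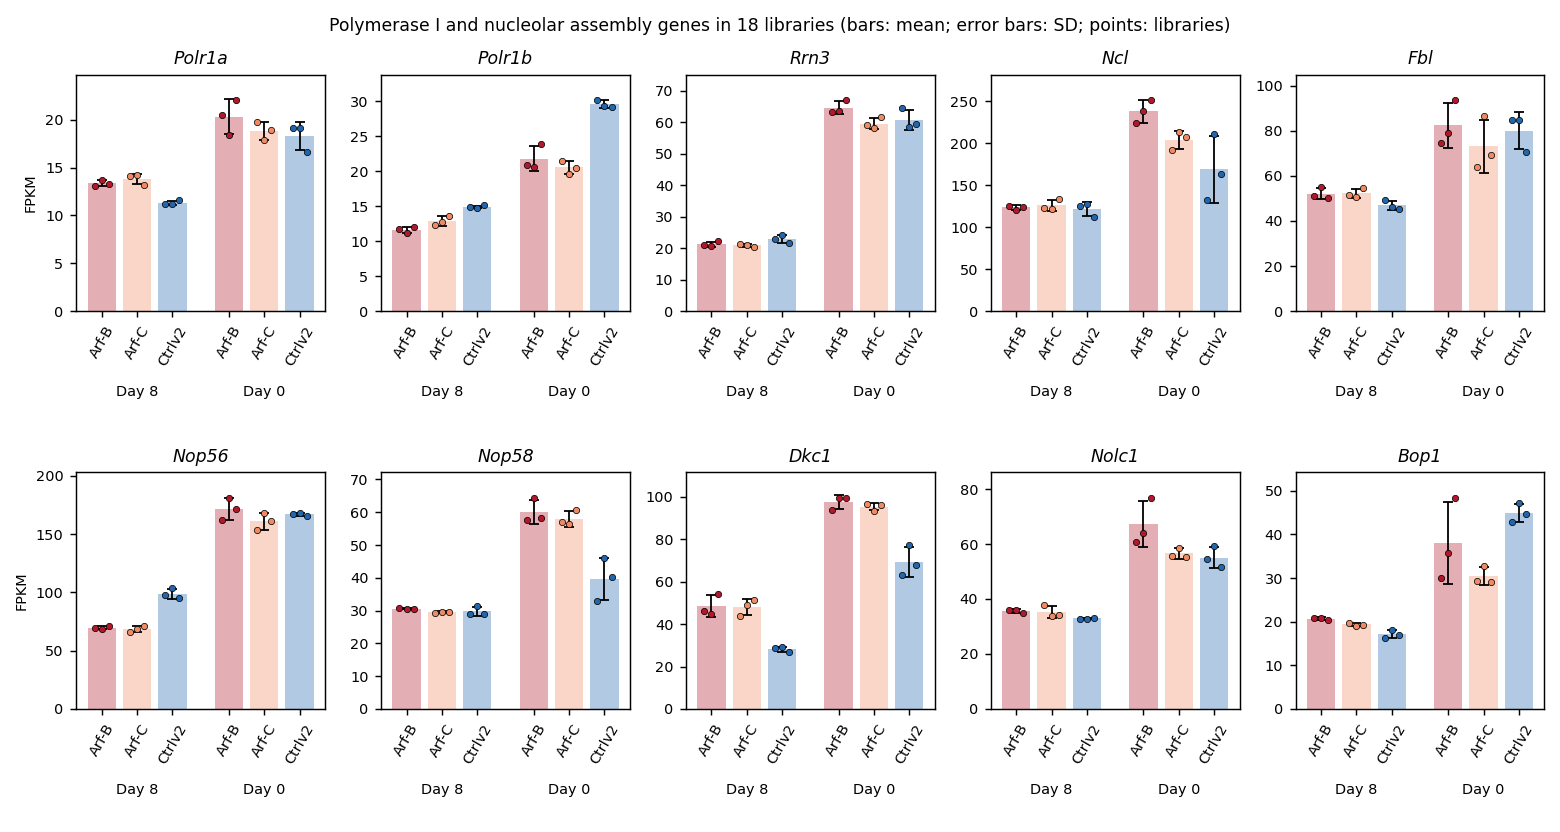
FPKM of the 10 genes in every library, with day 8 groups left and day 0 groups right in each panel and the lines in the order Arf-B, Arf-C, Ctrlv2. Bars are means, error bars SD (n = 3) and points libraries; every day 8 bar lies under the day 0 bar of its line, Dkc1 is lower in Ctrlv2 on both days, and Polr1b is higher in Ctrlv2 on both days.

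**Figure D2:**
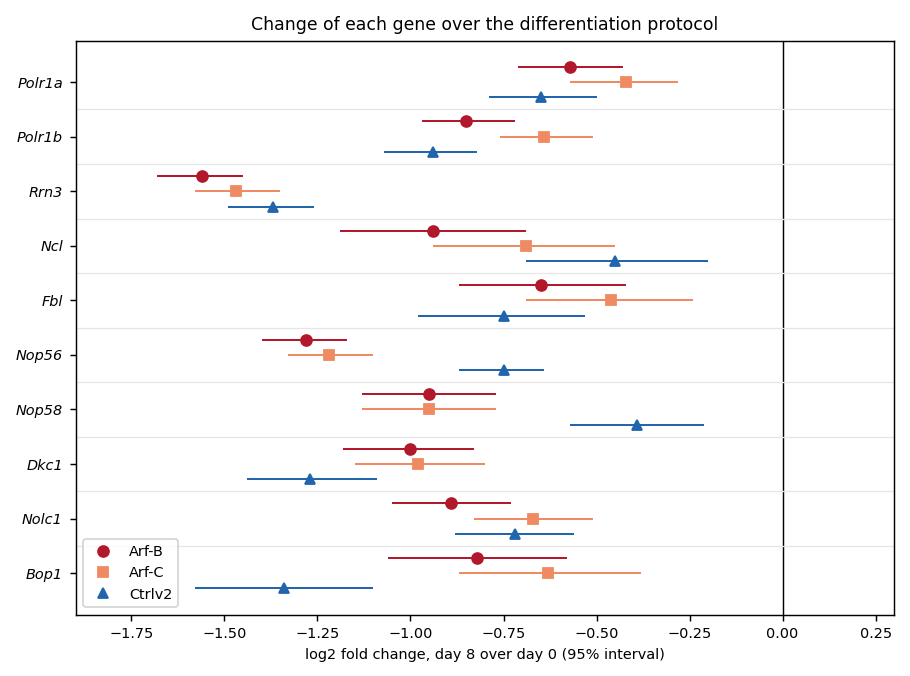
Log2 fold change of each gene, day 8 over day 0, in Arf-B (circles), Arf-C (squares) and Ctrlv2 (triangles), with 95% intervals of the fit. All points lie left of 0, and Rrn3 has the most negative value in each line (-1.56, -1.47 and -1.37).

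The lines differed in a few of the genes, and in both directions. At day 8, Arf-B had 2 genes called higher than in Ctrlv2 (Polr1a and Dkc1) and 2 lower (Polr1b and Nop56), against 16.3% and 16.9% of all genes tested. The same 4 genes were called with the same signs in Arf-C, where 16.8% of all genes were called higher and 16.8% lower. At day 0, Arf-B had 4 genes called higher (Ncl, Nop58, Dkc1 and Nolc1) and 1 lower (Polr1b), against 19.1% and 20% of all genes. In Arf-C at day 0, 2 were called higher (Nop58 and Dkc1) and 2 lower (Polr1b and Bop1), against 21.2% and 21.5%. Apart from the 4 higher calls of Arf-B at day 0, these counts of 1 or 2 in 10 lie near the share of all genes. The median over the 10 genes was 0.08 for Arf-B and 0.07 for Arf-C at day 8, against 0.12 and 0.01 at day 0, where medians of all genes lay between 0.00 and 0.01. Both Arf lines are set against the same Ctrlv2 libraries, so their values are not independent of each other.

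**Figure D3:**
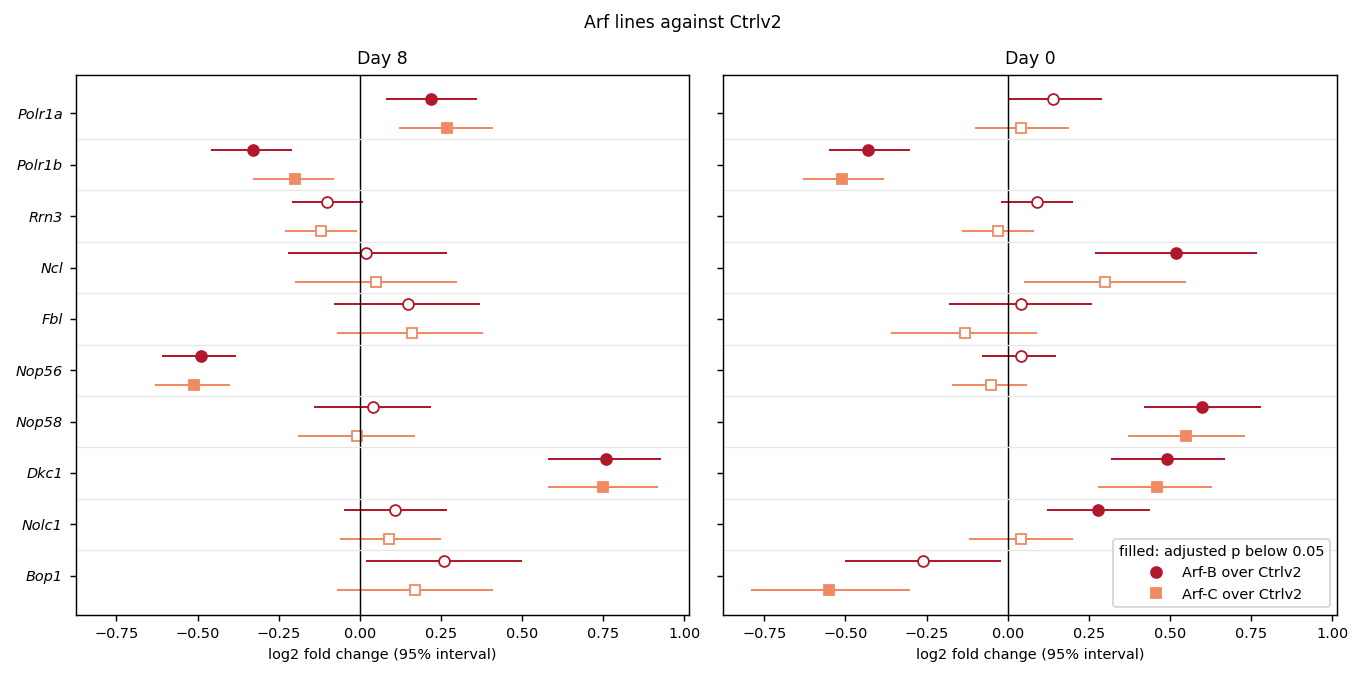
Log2 fold change of each gene in Arf-B (circles) and Arf-C (squares) over Ctrlv2 at day 8 (left) and day 0 (right), with 95% intervals; filled symbols have an adjusted p below 0.05. Dkc1 lies right of 0 and Polr1b left of 0 in all 4 comparisons, Nop56 lies left of 0 at day 8 (-0.49 and -0.51) and Nop58 right of 0 at day 0 (0.60 and 0.55).

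Polr1a (chr6:71909053-71984935, mm10, plus strand) encodes the largest subunit of polymerase I and forms its active site together with the product of Polr1b. At day 8 Polr1a had 13.1, 13.7 and 13.3 FPKM in Arf-B libraries, 14.1, 14.2 and 13.2 in Arf-C and 11.2, 11.2 and 11.6 in Ctrlv2. At day 0 Polr1a had 20.5, 18.4 and 22.1 FPKM in Arf-B libraries, 19.8, 17.9 and 18.9 in Arf-C and 19.2, 19.2 and 16.6 in Ctrlv2. The lines overlapped at day 0, while at day 8 every Arf library lay above every Ctrlv2 library. The log2 fold change at day 8 was 0.22 (SE 0.068, adjusted p = 0.0201 by limma) for Arf-B and 0.27 (adjusted p = 0.00639 by limma) for Arf-C. In Arf-B the call was lost without replicate 2 of Arf-B (adjusted p = 0.0666 by limma), replicate 1 of Ctrlv2 (0.0522) or replicate 2 of Ctrlv2 (0.0526). The fall from the day 0 level was -0.57 in Arf-B, -0.42 in Arf-C and -0.65 in Ctrlv2 on the log2 scale, so Polr1a kept 65.6%, 73.2% and 61.8% of its day 0 level.

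Polr1b (chr2:129100995-129126594, plus strand) encodes the other large catalytic subunit, and here the lines stood the other way round. At day 8 Polr1b had 11.7, 11.1 and 12 FPKM in Arf-B libraries, 12.3, 12.7 and 13.6 in Arf-C and 14.9, 14.8 and 15.1 in Ctrlv2. At day 0 Polr1b had 20.9, 20.6 and 23.9 FPKM in Arf-B libraries, 21.5, 19.6 and 20.5 in Arf-C and 30.2, 29.3 and 29.2 in Ctrlv2. On both days every Arf library lay below every Ctrlv2 library. The log2 fold changes were -0.33 (adjusted p = 0.000405 by limma) for Arf-B and -0.20 (adjusted p = 0.0155) for Arf-C at day 8, and -0.43 (adjusted p = 3.41e-05) and -0.51 (adjusted p = 5.48e-06) at day 0. The Arf-C call at day 8 was lost without replicate 1 of Arf-C (adjusted p = 0.0631 by limma) and with libraries scaled to the same sum (adjusted p = 0.211).

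Polr1b and Nop56 lie in a stretch of distal chromosome 2 in which most genes were lower in the Arf lines. Over 202 other genes of that stretch with a mean of at least 1 FPKM (chr2:115581716-144768758), the median log2 fold change was -0.45 for Arf-B and -0.44 for Arf-C at day 8, against -0.41 and -0.39 at day 0. Genes elsewhere had medians of 0.01 to 0.02. Polr1b lay within 0.12 of its stretch in the Arf-B and Arf-C lines at day 0 and was 0.11 and 0.24 above it in the Arf-B and Arf-C lines at day 8. Nop56 lay close to the stretch at day 8, -0.04 and -0.07 from its median, but stood 0.45 and 0.33 above it at day 0. The part of the stretch in either result was not tested.

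**Figure D4:**
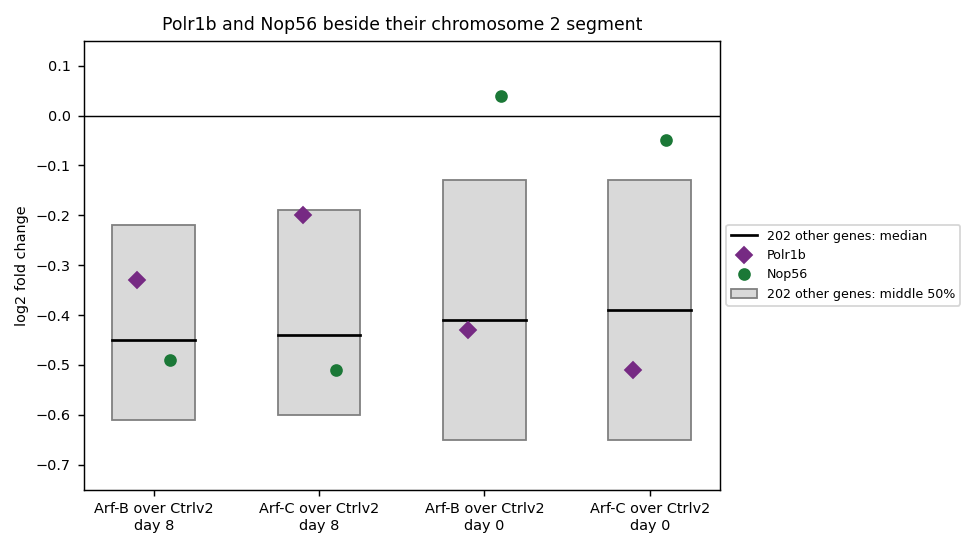
Log2 fold change of Polr1b (diamonds) and Nop56 (circles) in each Arf line over Ctrlv2, beside the median (line) and middle 50% (box) of the 202 other genes of their chromosome 2 stretch. Polr1b is inside the box in all 4 comparisons; Nop56 is inside it at day 8 and near 0, at -0.05 to 0.04, at day 0.

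Rrn3 (chr16:13780708-13814839, plus strand) encodes TIF-IA, the initiation factor that brings polymerase I to the rRNA promoter and through which growth signals act on it. It fell further than any other of the 10 genes in each line. At day 8 Rrn3 had 20.9, 20.6 and 22.2 FPKM in Arf-B libraries, 21.2, 21.1 and 20.4 in Arf-C and 22.8, 24.1 and 21.7 in Ctrlv2. At day 0 Rrn3 had 63.2, 63.6 and 67.1 FPKM in Arf-B libraries, 59.0, 58.1 and 61.5 in Arf-C and 64.5, 58.6 and 59.3 in Ctrlv2. The day 8 level was 32.8%, 35.1% and 37.6% of the day 0 level in Arf-B, Arf-C and Ctrlv2, with log2 fold changes of -1.56, -1.47 and -1.37 (SE 0.053; adjusted p = 5.4e-13, 1.12e-12 and 1.84e-12 by limma). No difference between an Arf line and Ctrlv2 was called on either day. The 95% intervals for Rrn3 ran from -0.21 to 0.01 in Arf-B and from -0.23 to -0.01 in Arf-C at day 8, and from -0.02 to 0.20 and -0.14 to 0.08 at day 0.

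The box C/D snoRNP, which adds 2′-O-methyl groups to rRNA, is built from the methyltransferase fibrillarin (Fbl), the scaffold pair Nop56 and Nop58, and Snu13. Fbl (chr7:28169710-28179269, plus strand) averaged 52.1 ± 2.55 FPKM in Arf-B, 52.4 ± 1.99 in Arf-C and 46.9 ± 2.14 in Ctrlv2 at day 8, against 82.4 ± 10.1, 73.2 ± 11.8 and 80 ± 8.14 at day 0 (SD, n = 3 each). Its day 8 libraries were above those of Ctrlv2 in both Arf lines, yet the differences of 0.15 and 0.16 were not called (adjusted p = 0.314 and 0.28 by limma). In Arf-B it was called with libraries scaled to the same sum (adjusted p = 0.0365 by limma).

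Nop56 (chr2:130274430-130279313, plus strand) differed between lines only in day 8 calls. At day 8 Nop56 had 69.5, 68.7 and 71.3 FPKM in Arf-B libraries, 65.9, 68.8 and 71.4 in Arf-C and 97.4, 103.6 and 94.8 in Ctrlv2. At day 0 Nop56 had 162.1, 181.1 and 171.6 FPKM in Arf-B libraries, 153.7, 168.0 and 161.0 in Arf-C and 167.5, 167.9 and 165.2 in Ctrlv2. The day 0 groups overlapped, and the day 8 groups of both Arf lines lay wholly below Ctrlv2. The log2 fold changes at day 8 were -0.49 for Arf-B (SE 0.054, adjusted p = 4.95e-06 by limma) and -0.51 for Arf-C (adjusted p = 3e-06 by limma). Idh3b, a mitochondrial enzyme gene on the opposite strand beside Nop56, changed by -0.77 and -0.76 in the Arf-B and Arf-C lines at day 8 and by -0.49 and -0.43 at day 0. The exons of the pair share 5 bases.

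Nop58 (chr1:59684971-59719044, plus strand), the partner of Nop56 in the same particle, differed between lines at day 0 instead. At day 8 Nop58 had 30.7, 30.5 and 30.6 FPKM in Arf-B libraries, 29.3, 29.7 and 29.7 in Arf-C and 29.0, 31.4 and 28.9 in Ctrlv2. At day 0 Nop58 had 57.7, 64.4 and 58.2 FPKM in Arf-B libraries, 56.9, 56.4 and 60.8 in Arf-C and 33.0, 45.9 and 40.1 in Ctrlv2. Every Arf library at day 0 lay above every Ctrlv2 library, while the day 8 groups overlapped. The log2 fold changes at day 0 were 0.60 (SE 0.086, adjusted p = 4.7e-05 by limma) for Arf-B and 0.55 (adjusted p = 9.42e-05 by limma) for Arf-C. At day 8 they were 0.04 and -0.01, with 95% intervals from -0.14 to 0.22 and from -0.19 to 0.17.

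Dkc1 (chrX:75095854-75109777, plus strand) encodes dyskerin, the pseudouridine synthase of the box H/ACA snoRNP and a part of telomerase. It was the only one of the 10 genes called higher in both Arf lines on both days. At day 8 Dkc1 had 46.3, 44.7 and 54.3 FPKM in Arf-B libraries, 43.7, 49.2 and 51.3 in Arf-C and 28.7, 29.0 and 26.7 in Ctrlv2. At day 0 Dkc1 had 94.0, 99.5 and 99.6 FPKM in Arf-B libraries, 96.6, 93.5 and 96.2 in Arf-C and 63.1, 77.3 and 67.7 in Ctrlv2. No Arf library overlapped Ctrlv2 on either day. The log2 fold changes were 0.76 and 0.75 at day 8 (SE 0.082, adjusted p = 3.96e-06 and 4.21e-06 by limma) and 0.49 and 0.46 at day 0 (adjusted p = 0.000189 and 0.000313 by limma), in Arf-B and Arf-C each time. The median of 458 other X chromosome genes was 0.01 and -0.02 at day 8 and 0.13 and 0.11 at day 0. Markers of undifferentiated stem cells were also higher at day 8, 8 of 8 called for Arf-B and 7 of 8 for Arf-C, with the sums given above. Markers of primitive and parietal endoderm, another cell type such cultures can hold, were lower, 8 of 8 called in either Arf line, with sums of 151.6 to 152.8 FPKM in Arf-B, 153.1 to 164.1 in Arf-C and 464.3 to 623.7 in Ctrlv2. At day 0 they were lower too, 6 of 8 called in Arf-B and 7 of 8 in Arf-C, with sums of 96.72 to 113 and 96.19 to 119.5 FPKM, against 208.9 to 237.8 in Ctrlv2. Mesoderm and muscle markers summed to 7.37 to 8.176 FPKM in Arf-B, 6.67 to 7.109 in Arf-C and 25.95 to 32.35 in Ctrlv2 at day 8, with Mesp1 at 0 in Ctrlv2. Of 5 tested, 3 were called lower and 1 higher in Arf-B, and 4 lower and 1 higher in Arf-C. The part of these cell types in the differences between lines was not tested for any of the 10 genes, at day 8 (Dkc1, Polr1a, Polr1b and Nop56) or at day 0 (Dkc1, Nop58, Ncl, Nolc1, Polr1b and Bop1).

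Nolc1 (chr19:46075863-46085530, plus strand) encodes Nopp140, a chaperone that binds both snoRNP classes. It averaged 35.7 ± 0.766 FPKM in Arf-B, 35.3 ± 2.24 in Arf-C and 32.9 ± 0.224 in Ctrlv2 at day 8. At day 0 Nolc1 had 60.9, 64.1 and 76.8 FPKM in Arf-B libraries, 55.8, 58.7 and 55.2 in Arf-C and 54.4, 59.1 and 51.5 in Ctrlv2. All 3 Arf-B libraries were above Ctrlv2 at day 0, and Arf-C overlapped it. The Arf-B difference was 0.28 (SE 0.075, adjusted p = 0.00716 by limma) and was lost when only these groups were fitted (adjusted p = 0.0768). At day 8 the Nolc1 difference of Arf-B was 0.11 (adjusted p = 0.278 by limma), and with libraries scaled to the same sum it was 0.23 (adjusted p = 0.0183). The gene length in the table is 4483 bases, against 3971 exon bases in GENCODE vM21, which scales its FPKM alike in every library.

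Ncl (chr1:86344719-86359400, minus strand) encodes nucleolin, an abundant protein that binds the rRNA precursor and its chromatin, and it had the highest mean FPKM of the 10 genes in every group. In Ctrlv2 at day 0 that order rested on replicate 2, since Nop56 was higher than Ncl in the other libraries. At day 8 Ncl had 125.6, 120.5 and 123.7 FPKM in Arf-B libraries, 122.8, 121.4 and 132.8 in Arf-C and 124.5, 127.3 and 112.4 in Ctrlv2. At day 0 Ncl had 223.8, 238.2 and 251.4 FPKM in Arf-B libraries, 191.6, 212.9 and 207.2 in Arf-C and 131.8, 210.7 and 163.2 in Ctrlv2. Only the Arf-B libraries at day 0 stood clear of Ctrlv2, whose own replicates spread widely. The log2 fold change of Ncl at day 0 was 0.52 for Arf-B (SE 0.12, adjusted p = 0.00228 by limma) and 0.30 for Arf-C (adjusted p = 0.0507). The Arf-B call was lost when only these groups were fitted (adjusted p = 0.0508 by limma). The Arf-C value was called with a mean of 1 FPKM as filter (adjusted p = 0.0416 by limma) and with libraries scaled to the same sum (0.0358). It was also called with voom on recovered reads (0.031) and with a replicate block (0.0461). With 0.1 as pseudocount, no filter or only these groups it was not called. Without replicate 2 of Ctrlv2 the Arf-C value was 0.47 (adjusted p = 0.00053 by limma), and the Arf-C difference in the day 8 over day 0 change, -0.25 with it (adjusted p = 0.261), was -0.42 (adjusted p = 0.0107).

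Bop1 (chr15:76452989-76477277, minus strand) encodes a subunit of the PeBoW complex, which matures the large ribosomal subunit. At day 8 Bop1 had 20.9, 20.9 and 20.4 FPKM in Arf-B libraries, 19.7, 19.1 and 19.3 in Arf-C and 16.3, 18.1 and 16.9 in Ctrlv2. At day 0 Bop1 had 30.0, 35.8 and 48.4 FPKM in Arf-B libraries, 29.4, 32.8 and 29.2 in Arf-C and 42.8, 47.1 and 44.8 in Ctrlv2. Arf-C lay below Ctrlv2 at day 0 and above it at day 8. The day 0 difference of Arf-C was -0.55 (SE 0.11, adjusted p = 0.00109 by limma), and the day 8 values of 0.26 for Arf-B and 0.17 for Arf-C were not called (adjusted p = 0.0905 and 0.284). The Bop1 value of Arf-B at day 8 was called with libraries scaled to the same sum (0.39, adjusted p = 0.00798 by limma) and with only these groups fitted (adjusted p = 0.0106). In Arf-B at day 0 replicates 1 and 2 lay below every Ctrlv2 library and replicate 3 above; with replicate 3 the difference was -0.26 (adjusted p = 0.0857 by limma), and without it -0.44 (adjusted p = 0.000337).

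Some reads could be shared with neighbours, since no source used here gives the strand setting of the counting. Annotated exons on the opposite strand cover 185 bases of Polr1a (Gm26628), 45 of Dkc1 (Mpp1) and 50 of Bop1 (Mroh1), at most 1.69% of a gene's exon bases. Ncl, Nop56, Nop58 and Dkc1 also host 13 small nucleolar RNA genes in their spans (3, 5, 4 and 1), and none of these had more than 38 reads in any library. Some share exon bases with their host and had 0 reads, such as Snora75 with 133 bases of Ncl. In Nop56, of 4099 exon bases, Snord57 shares 72, Gm24451 100, Gm23650 70 and Gm23187 86. How reads in shared bases were counted is not given, so these low counts do not show how many reads are shared.

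The change over the protocol differed between lines for some of the genes, by a test of the difference itself. In Arf-B against Ctrlv2, 1 gene was called higher and 3 lower, against 17.5% and 16.1% of all genes, and in Arf-C 2 were called higher and 2 lower, against 19.4% and 18.9%, so these counts lie near the share of all genes. Nop58 fell by 0.95 in Arf-B, by 0.95 in Arf-C and by 0.39 in Ctrlv2, a difference of -0.56 for either Arf line (SE 0.12, adjusted p = 0.00229 and 0.00199 by limma). Nop56 fell by 1.28, 1.22 and 0.75, with differences of -0.53 and -0.46 (adjusted p = 8.38e-05 and 0.000235 by limma). The messenger RNAs of both scaffold proteins of the box C/D particle thus had the larger log2 fall in the Arf lines. Bop1 went the other way, falling by 0.82, 0.63 and 1.34, with differences of 0.52 and 0.71 (adjusted p = 0.0202 and 0.00255 by limma). Polr1b in Arf-C differed by 0.31 (adjusted p = 0.00887 by limma). Ncl in Arf-B differed by -0.49 (adjusted p = 0.0301 by limma), but this call was lost without any of 8 single libraries (adjusted p up to 0.0665) and under 3 other settings (adjusted p up to 0.0773).

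No difference between Arf-B and Arf-C was called in any of the 10 genes by limma, at day 8 or at day 0. At day 0 all 10 values were higher in Arf-B, by 0.03 to 0.29 with a median of 0.11, against -0.00 for all genes. The 10 values come from the same libraries, so they are not independent of each other. Without single libraries the largest, Bop1, ran from 0.11 to 0.44, and Nop58 from -0.0 to 0.08. At day 8 the values ran from -0.13 to 0.09, with a median of 0.01. Without adjustment, 1 gene at day 8 (Polr1b) and 3 at day 0 (Rrn3, Nolc1 and Bop1) had p below 0.05, as did 912 and 1894 of the 17200 genes tested. Calls at the adjusted threshold between these lines were rare over all genes too, 0.0581% at day 8 and 0.343% at day 0. The 95% intervals of the Arf-B minus Arf-C difference lay between -0.27 and 0.34 on the log2 scale at day 8 and between -0.14 and 0.53 at day 0.

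The fall extended to most other genes of the pathway. Of 126 further polymerase I, snoRNP, small-subunit and large-subunit assembly genes, all of them tested, 114 were called lower and 3 higher at day 8 over day 0 in Arf-B, 108 and 6 in Arf-C, and 109 and 3 in Ctrlv2. Their median log2 fold changes were -0.64, -0.56 and -0.61. Between lines no fall of that extent appeared. At day 8, 18 were called higher and 17 lower in Arf-B, beside 16.3% and 16.9% of all genes. Arf-C had 19 and 15, beside 16.8% and 16.8%. At day 0 the counts were 23 and 17 in Arf-B, beside 19.1% and 20%. In Arf-C they were 12 and 40, beside 21.2% and 21.5%, and the median of the 126 was -0.05 there. The change over the protocol was also set against that of Ctrlv2. By that test 16 were called higher and 21 lower in Arf-B, beside 17.5% and 16.1% of all genes. For Arf-C 36 were higher and 13 lower, beside 19.4% and 18.9%, with a median of 0.06.

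**Figure D5:**
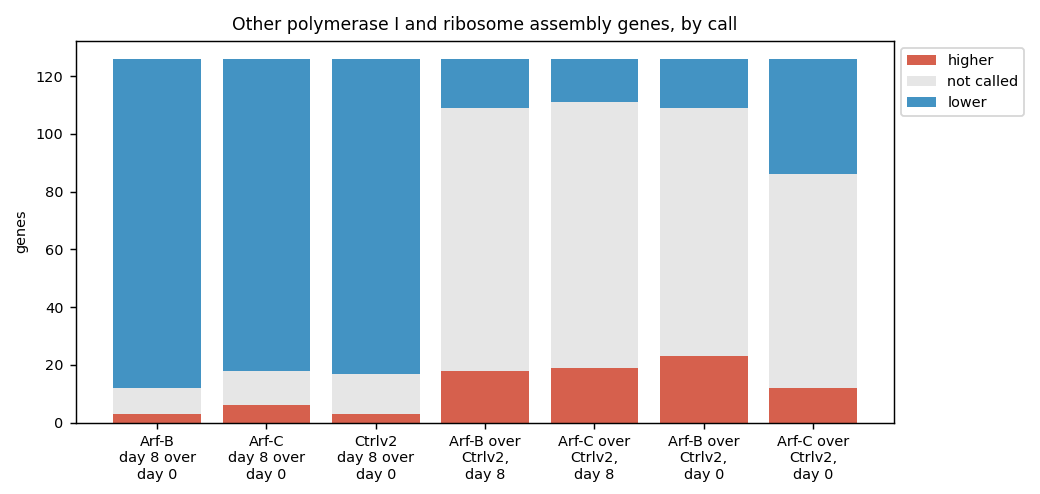
Number of the 126 other pathway genes called higher (red), not called (grey) or lower (blue) by limma at an adjusted p below 0.05, for day 8 over day 0 in each line and for each Arf line over Ctrlv2. The lower calls number 108 to 114 in the 3 day comparisons and 15 to 40 in the 4 line comparisons.

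Among the 16 polymerase I subunits and initiation factors, 3 of them already described, 14 were lower at day 8 in Arf-B, 11 in Arf-C and 14 in Ctrlv2. Ubtf, the factor that opens active rRNA genes, had 30.6 ± 0.368 FPKM in Arf-B, 31.7 ± 1.81 in Arf-C and 25.6 ± 0.548 in Ctrlv2 at day 8, against 64.2 ± 1.64 in Ctrlv2 at day 0. Its log2 fall was -1.16, -1.03 and -1.29, and at day 8 it was higher in Arf-B by 0.25 (adjusted p = 0.000918 by limma) and in Arf-C by 0.29 (adjusted p = 0.000198 by limma). Cd3eap, another polymerase I subunit gene, was lower at day 8 by -0.33 for Arf-B and -0.31 for Arf-C. Polr1c, a subunit shared with polymerase III, was called higher at day 8 over day 0 in Arf-C (0.37) and Ctrlv2 (0.26). Ttf1, the terminator-binding factor that p19Arf is known to bind, was higher at day 0 by 0.29 for Arf-B (adjusted p = 0.00168 by limma) and by 0.19 for Arf-C (adjusted p = 0.0228 by limma).

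Of the 19 snoRNP proteins and assembly factors, 5 of them already described, 18 were lower at day 8 in Arf-B, 17 in Arf-C and 17 in Ctrlv2. Nhp2, a dyskerin partner in the box H/ACA particle, had 56.2 ± 4.78 FPKM in Arf-B, 58.3 ± 4.78 in Arf-C and 55.1 ± 2.44 in Ctrlv2 at day 8. Its log2 fold change over the protocol was -1.33 in Arf-B, -1.0 in Arf-C and -1.69 in Ctrlv2. Gar1, of the same particle, was higher in Arf-B at day 0 by 0.33 (adjusted p = 0.0402 by limma). In Arf-C at day 0, 10 of the 19 were lower, among them Ruvbl2, an ATPase of the assembly machinery, by -0.73. Nufip1, which helps assemble box C/D particles, was lower in both Arf lines, by -0.98 and -0.87 at day 8 and by -0.94 and -0.93 at day 0 in Arf-B and Arf-C. It lies on chromosome 14 at chr14:76110891-76137379, where the median of 126 neighbouring genes between 60 and 80 Mb was -0.83 and -0.81 at day 8 and -0.82 and -0.81 at day 0.

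In the small-subunit processome, 43 of 49 genes were lower at day 8 in Arf-B, 42 in Arf-C and 44 in Ctrlv2. Nol6, a processome component, had 20.0 ± 1.07 FPKM in Arf-B, 20.1 ± 0.162 in Arf-C and 13.3 ± 0.187 in Ctrlv2 at day 8, higher by 0.55 and 0.56 in the Arf lines (adjusted p = 1.2e-05 and 1.02e-05 by limma). Mphosph10, which belongs to the U3 particle, was higher at day 0 by 0.51 for Arf-B and 0.52 for Arf-C, and Rrp9, a U3 protein, was lower in Arf-C by -0.63. Of the 51 large-subunit factors, Bop1 included, 48 were lower at day 8 in Arf-B, 47 in Arf-C and 43 in Ctrlv2. Rrp1 was an exception in the Arf lines, with 65.0 ± 2.95 FPKM for Arf-B and 66.5 ± 4.34 for Arf-C at day 8, against 45.4 ± 5.18 and 40.9 ± 3.07 at day 0, rises of 0.51 and 0.69. Ebna1bp2 was lower at day 0 by -0.58 for Arf-B and -0.92 for Arf-C.

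Myc drives transcription of many of these genes in other settings, and Mycn is its close relative. Myc had 5.69 ± 0.471 FPKM in Arf-B, 5.05 ± 0.685 in Arf-C and 10.4 ± 1.25 in Ctrlv2 at day 8, and 9.45 ± 1.3, 8.15 ± 0.442 and 19.9 ± 0.595 at day 0, lower in both Arf lines on both days (log2 -0.77, -0.91, -1.01 and -1.19). Mycn had 6.66 ± 0.763 FPKM in Arf-B, 6.73 ± 0.639 in Arf-C and 3.93 ± 1.47 in Ctrlv2 at day 8, higher by 0.67 and 0.69. At day 0 it had 16.5 ± 2.19, 11.4 ± 1.21 and 9.8 ± 0.763 FPKM and was called higher in Arf-B alone (0.69). Mycl, a further relative, rose over the protocol instead, by 1.46 in Arf-B, 1.26 in Arf-C and 1.67 in Ctrlv2. It was called higher at day 8 in Arf-B (0.32) and Arf-C (0.33) than in Ctrlv2. Npm1, the abundant nucleolar protein that holds p19Arf, averaged 691 ± 8.94, 678 ± 20.2 and 679 ± 49.6 FPKM at day 8 and 1106 ± 121, 1029 ± 128 and 854 ± 114 at day 0 in Arf-B, Arf-C and Ctrlv2. It fell in each line, by 0.67, 0.59 and 0.32, and was higher in Arf-B at day 0 by 0.38 (adjusted p = 0.0102 by limma), with overlapping libraries.

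The 10 genes followed each other across the 18 libraries. The correlation of each with the mean standardised profile of the other 9 ran from 0.833 for Polr1b to 0.984 for Nolc1 (Pearson's r, a description over libraries that share the day contrast). By the same measure the genes most like their mean profile, among 7404 candidates with a mean of at least 5 FPKM, were Pdzd4 (0.995), Rpl7l1 (0.993), Npm3 (0.992), Sdha (0.992), Uba2 (0.991), Pcyt1b, Lars and Taf13 (0.990 each), and L1td1 and Slc28a1 (0.989 each). In the order of the 6 group means, the day 0 groups took the first 3 places for all 10 genes. The highest group was Arf-B at day 0 for 8 of them and Ctrlv2 at day 0 for Polr1b and Bop1, and it stood clear of the next group only for Polr1b, Ncl and Nolc1. The lowest was Ctrlv2 at day 8 for Polr1a, Ncl, Fbl, Dkc1, Nolc1 and Bop1, Arf-C at day 8 for Rrn3, Nop56 and Nop58, and Arf-B at day 8 for Polr1b, and for Rrn3, Ncl, Nop56 and Nop58 the lowest group overlapped its neighbour in the order.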

How the data were processed

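Polyadenylated RNA of 18 libraries was sequenced. FPKM values per gene were deposited by the authors; HISAT2, featureCounts, DESeq2 and mm10 are named per the submitters' processing notes, without versions, and no source used here gives strandedness. Multiplied by gene length, all 413772 deposited FPKM values above 0 were whole multiples of a step fixed within each library (tolerance 0.001 reads), which gave reads on genes of 10432590 to 33311220 per library. Spans of the 10 genes match GENCODE vM21. Every sample column was used.

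Values were tested as log2(FPKM + 1), a scale that understates changes of low genes, for the 17200 genes that reached 0.5 FPKM in 3 or more libraries. limma 3.58.1 (R 4.3.3, statmod 1.5.0) fitted 1 coefficient per group over all 18 libraries (12 residual degrees of freedom) with trended, robust moderation; the Benjamini-Hochberg adjustment ran over all genes tested and an adjusted p below 0.05 was called. The procedure was tried on simulated reads in which all genes had the same spread and few changed, only in the Arf groups at day 0. Some groups here spread more widely, so that trial does not bear on the calls reported. Tables and figures used Python 3.11.15, pandas 2.3.3, NumPy 2.4.6 and matplotlib 3.10.9. Alternatives were 0.1 as pseudocount, no filter on low values, a mean of 1 FPKM as filter, libraries scaled to the same sum, voom on recovered reads, the groups of a comparison alone, a replicate block and leaving out each library. Counting intervals are not given for means of replicates.

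The 10 genes, the pathway and marker lists and the segments were chosen with earlier results of these data known. Of each list up to 2 rises and 2 falls per comparison could be named: the largest among called genes with at least 5 FPKM in the higher group and no overlap between libraries. Npm1, Myc and Mycn are given throughout. Idh3b was named after its values were seen.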

Additional observations from a re-analysis of the deposited data

Results flagged for a closer look

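The change from day 0 to day 8 differed between an Arf line and Ctrlv2 for 5 of the 10 genes, by the test of the difference in limma, 4 in each line. Of all genes, 17.5% were called higher and 16.1% lower for Arf-B and 19.4% and 18.9% for Arf-C, so the count of 4 in 10 lies near that of all genes. The differences in log2 fold change were -0.56 in Arf-B and -0.56 in Arf-C for Nop58, -0.53 in Arf-B and -0.46 in Arf-C for Nop56, 0.52 in Arf-B and 0.71 in Arf-C for Bop1, -0.49 in Arf-B for Ncl, and 0.31 in Arf-C for Polr1b. Against Ctrlv2 at day 0, Nop58 was called in both Arf lines and Ncl in Arf-B alone. Replicate spread in Ctrlv2 at day 0 was widest among the groups for both genes (16.3% and 23.6% of the mean). Both had like levels at day 8. Nop56 had like levels at day 0 and differed at day 8. The 202 other genes of the chromosome 2 stretch that holds Nop56 and Polr1b had a median difference of -0.00 in both lines.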

How the results depend on the processing

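Of 1550 values of a member gene under another setting, 1507 kept their side of the threshold, 18 calls were lost, 25 were gained and none reversed. Among the 1507, 25 changed sign but were called in neither fit. As differences from the median of their chromosome 2 stretch, the day 8 values of Polr1b turned positive, 0.11 in Arf-B and 0.24 in Arf-C. The number of the 10 genes called in Arf-B was 3 at day 0 with the groups alone (against 5) and 7 at day 8 with libraries scaled to the same sum (against 4). Between Arf-B and Arf-C, 59 genes were called at day 0, against 166 with voom, 7 with the groups alone and 18 to 69 without single libraries. At day 8 it was 10, against 26 with no filter, 5 with the groups alone and 7 to 13 without single libraries. The causes were not tested. Scaling to the same sum moved the median of all genes to 0.16, 0.14 and 0.09 for day 8 over day 0 in Arf-B, Arf-C and Ctrlv2, and to 0.12 and 0.09 for Arf-B and Arf-C at day 8. The share of calls that were higher went to 62.3% and 60.1% in Arf-B and Arf-C over time (against 49.4% and 49.2%), to 69.6% and 64.1% at day 8 (against 49% and 50%), to 65.1% for the day response of Arf-B (against 52.1%) and to 42.2% for Arf-B against Arf-C at day 0 (against 30.5%). Of 420 list counts under other settings, 39 moved by over 1.5 times. Deviations of same-numbered replicates had correlations of -0.251 to 0.203, and the numbers were not taken as pairs. Between Arf-B and Arf-C they were 0.203, 0.118 and -0.00546 at day 0 and 0.0959, -0.0141 and 0.143 at day 8. Differently numbered replicates were not compared, so these values do not show whether a batch was shared. With a replicate block, 1 call among the 10 genes changed, Ncl in Arf-C at day 0 (adjusted p = 0.0461 by limma, against 0.0507). The day 8 libraries of Ctrlv2 were the shallowest.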

Other observations

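Subunit genes of polymerases II and III were also mostly lower at day 8, where 33.8% to 34.4% of all genes were called lower. Of 5 subunits shared by polymerases I, II and III, 4 were called lower at day 8 over day 0 in Arf-B, 3 in Arf-C and 5 in Ctrlv2, and of 11 polymerase III subunits 10, 10 and 9. Of 7 subunits particular to polymerase II, 4 were lower in each line, and Polr2b was called higher in Arf-B (0.16, adjusted p = 0.0193 by limma) and Arf-C (0.26, adjusted p = 0.000484 by limma). Polr2a, the largest polymerase II subunit, had 54.8 ± 3.93 FPKM in Arf-B, 56.6 ± 5.39 in Arf-C and 39.6 ± 4.47 in Ctrlv2 at day 8, against 113 ± 14.3, 113 ± 16.4 and 98.5 ± 12.2 at day 0. It was higher at day 8 by 0.47 for Arf-B (adjusted p = 0.00935 by limma) and 0.51 for Arf-C (adjusted p = 0.00534 by limma). Polr3d, a polymerase III subunit, was lower by -1.44 for Arf-B and -1.36 for Arf-C at day 8 and by -1.07 and -1.10 at day 0. It lies in the chromosome 14 stretch that also holds Nufip1, whose other genes had medians of -0.83 to -0.81.

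Of 7 rRNA factors linked to p19Arf in earlier work, 6 were lower at day 8 in each line. Senp3, a SUMO protease of the nucleolus, had 83.4 ± 8.13 FPKM in Arf-B, 84.1 ± 3.49 in Arf-C and 122 ± 4.05 in Ctrlv2 at day 0, lower by -0.55 and -0.53 (adjusted p = 5.23e-05 and 6.21e-05 by limma). Ddx5, an RNA helicase, was higher at day 0 by 0.32 for Arf-B and 0.41 for Arf-C.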
